A study of Eleocharis dulcis with 24 samples.

Results

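The step from middle to late swelling in corms of cultivated *Eleocharis dulcis* (Chinese water chestnut) was described here from 3 late and 3 middle libraries. Genes belonged to the comparison if their TPM (a transcript abundance corrected for length and scaled to the same total in every library) reached at least 1 in at least 3 of these 6 libraries. Of 35975 genes in the table, 20796 met this rule. The full study held 24 libraries of total corm RNA, sequenced on the DNBSEQ-T7 platform as 3 biological replicates at each of 4 stages (initial, middle and late swelling, and maturity) in cultivated and in wild plants. The groups used were cultivated late, cultivated middle, wild late and wild middle corms, with the initial and mature corms of both origins shown for their levels. The labels give no genotype, plant line, treatment or age beyond origin and stage. Whether a replicate was 1 corm or a pool is not given in the sources used here.

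A corm is a short, thickened underground stem that serves as a storage organ. In water chestnut it forms at the tip of a rhizome, swells as its tissue grows, and fills with starch and sugars, which are what makes it a food crop. The 2 stages compared lie between the start of swelling and maturity. Genes are given by the IDs of the deposited table, most of which begin with EdulChr and a number. No table used here pairs these IDs with gene names or functions, so no role is assigned to any of them and the labelled tissue could not be checked against marker genes.

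The 6 libraries were close replicates. Spearman correlations over the 20796 genes ranged from 0.990 to 0.993 within a stage and from 0.904 to 0.906 between stages. The ranges within and between stages did not overlap. The genes of the comparison held 99.8% of all TPM in each library. TPM carries no sequencing depth, so no counting interval could be given and the spread of the replicates is the measure of precision. A lower TPM in bulk tissue can mean less RNA per cell or fewer cells that express the gene, and these cannot be told apart.

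More genes were higher than lower at late swelling in the values as deposited, and this balance turned over with the scaling. Among the 20796 genes, 16011 differed between the stages at a limma adjusted p under 0.05, against 64.2% of all 27050 genes tested. Of them 11571 were higher at late swelling (background 45.5%) and 4440 lower (background 18.7%). A change of at least 2-fold on the log2(TPM + 1) scale was called in 3376 genes, or 16.2%, with 12.6% of all tested genes as background. Of these, 2383 were higher at late swelling (background 8.87%) and 993 lower (background 3.75%). After median-of-ratios scaling, which sets the typical gene equal in all libraries, 15088 genes were called (background 60.1%), with 6741 higher (background 26.5%) and 8347 lower (background 33.6%). The 2-fold changes were then 1035 higher (background 3.84%) and 1665 lower (background 6.24%). The median log2 change over the 20796 genes was 0.28 as deposited and -0.05 after scaling. In all, 653 genes were called higher as deposited and lower after scaling. None was called lower as deposited and higher after scaling.

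A change that held in both scalings is therefore used for the lists of rises and falls. It was found for 1035 genes at least 2-fold higher at late swelling and 992 at least 2-fold lower. The rises are all 1035 of the scaled values, and the falls are nearly all 993 of the deposited values. The cutoff was thus set by the scaled values for rises and by the deposited values for falls. Shares of rises and of falls in these lists therefore rest on unlike cutoffs. Over all tested genes the shares called in both scalings were 3.84% higher and 3.74% lower. These stand for 1039 and 1012 genes, so the background holds nearly the same genes in a larger set. As deposited, 203 genes were at least 4-fold higher (background 0.758%) and 238 at least 4-fold lower (background 0.88%), and after scaling 91 were higher (background 0.34%) and 328 lower (background 1.21%). The median log2 change was 1.59 for the rises and -1.45 for the falls as deposited, and 1.26 and -1.71 after scaling. The 1035 genes that rose together held 4.74, 4.75 and 4.73% of TPM in the late libraries, against 1.06, 1.04 and 1.06% in the middle libraries. The 992 that fell held 4.31, 4.11 and 4.17% of TPM in the late libraries, against 13.5, 13.1 and 13.5% in the middle libraries. Both lists were chosen on these libraries, so these shares describe them and test nothing.

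**Figure D1:**
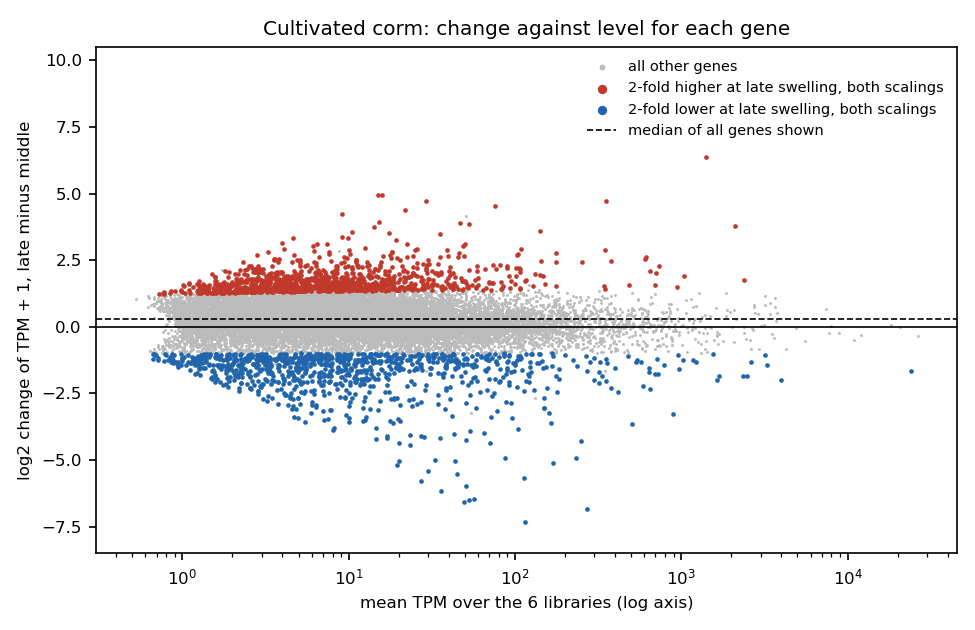
Log2 change of TPM + 1 (late minus middle, vertical axis) against the mean TPM over the 6 cultivated libraries (horizontal log axis) for 20796 genes. Red points are the 1035 genes at least 2-fold higher and blue points the 992 at least 2-fold lower under both scalings, and the dashed line is the median of 0.28. Both lists had to reach 2-fold in both scalings. Scaling lowered the median to -0.05, so the gap between the red points and 0 is wider than that of the blue ones.

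The balance of rises and falls was also counted by the level of a gene. In the class under 10 TPM (mean over the 6 libraries, 10221 genes), 6.53% were 2-fold higher and 5.24% 2-fold lower at late swelling under both scalings. From 10 to under 100 TPM (9128 genes) the shares were 3.58% higher and 3.97% lower. In the class from 100 to under 1000 TPM (1341 genes), 2.76% were higher and 6.04% lower. Of the 106 genes at 1000 TPM or more, 4 were higher and 13 lower. As deposited, the class from 100 to under 1000 TPM held 90 rises and 81 falls of at least 2-fold and the highest class 10 rises and 13 falls, while after scaling these were 37 and 178, and 4 and 23. Under 10 TPM there were 1529 rises and 537 falls as deposited, and 667 and 779 after scaling. From 10 to under 100 TPM there were 754 and 362 as deposited, and 327 and 685 after scaling. The balance thus turned with the scaling in every class under 1000 TPM, and no test was made of these counts. Those 106 genes held 32.0 ± 0.238% of TPM at late swelling and 36.2 ± 0.168% at middle swelling (SD, n = 3 each), while genes under 10 TPM held 5.02 ± 0.00698% at late and 3.84 ± 0.0408% at middle swelling (SD, n = 3 each).

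The largest rise belonged to EdulChr52G00189610. It stood at 2813, 2746 and 2791 TPM in the late libraries, against 31.3, 33 and 32.5 TPM in the middle libraries. The lowest late library was far above every middle library, and the log2 change was 6.39 ± 0.05 (SE, adjusted p = 4.34e-26 by limma). The same gene averaged 307 ± 18.2 TPM at the initial stage and 41.1 ± 0.775 TPM at maturity (SD, n = 3 each), so that late swelling was the only cultivated stage at which it was above 1000 TPM.

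A group of named rises was listed at 0 in all 3 middle libraries, so no fold is given for them. EdulChr107G00327120 had 21.1, 28.2 and 45.5 TPM in the late libraries, EdulChr12G00054400 had 28.9, 33.9 and 26.7 TPM, and EdulChr60G00208410 had 15, 15 and 24.9 TPM. The late libraries of EdulChr107G00327120 spread the most. Outside late swelling these genes parted ways: EdulChr60G00208410 was listed at 0 in all initial and mature libraries as well, EdulChr12G00054400 was at 0 in all initial libraries and at 13.6, 8.03 and 10.2 TPM at maturity, and EdulChr107G00327120 had 6.48, 6.09 and 14.1 TPM at maturity.

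EdulChr28G00112290 was the second most abundant of the 10 largest rises at late swelling. It had 676, 690 and 692 TPM in the late libraries and 23.2, 26.1 and 25.2 TPM in the middle libraries, a log2 change of 4.73 ± 0.08 (SE, adjusted p = 3.52e-20 by limma). EdulChr95G00301680 had 151, 145 and 141 TPM in late and 4.2, 5.97 and 5.99 TPM in middle libraries, a change of 4.53 ± 0.14 (SE, adjusted p = 2.63e-16 by limma). Both were low at the initial stage, at 1.38 ± 0.333 and 1.23 ± 0.298 TPM, and had come down to 85.2 ± 7.2 and 46.8 ± 4.28 TPM at maturity (SD, n = 3). Every late library of either gene was far above every middle library.

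EdulChr24G00097990 and EdulChr24G00097960, whose numbers lie close together, rose side by side. The first had 60.3, 57.5 and 54.9 TPM in late libraries and 1.58, 0.96 and 1.11 TPM in middle libraries. The second had 41.6, 41.4 and 44.3 TPM in late libraries and 0.93, 1.35 and 1.03 TPM in middle libraries. Their log2 changes were 4.73 ± 0.13 (SE, adjusted p = 4.44e-17 by limma) and 4.37 ± 0.07 (SE, adjusted p = 5.60e-21 by limma), and both were back under 10 TPM at maturity.

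The remaining named rises, EdulChr76G00254000 and EdulChr74G00249580, were still high at maturity. EdulChr76G00254000 had 31.9, 29.2 and 27.4 TPM in late libraries and 1.04, 1.05 and 0.84 TPM in middle libraries (log2 change 3.95 ± 0.06, SE, adjusted p = 8.18e-21 by limma), and it averaged 28.6 ± 1.63 TPM at maturity (SD, n = 3). EdulChr74G00249580 had 88.1, 89.2 and 87.2 TPM in late libraries and 4.85, 4.42 and 5.65 TPM in middle libraries (log2 change 3.91 ± 0.07, SE, adjusted p = 1.33e-20 by limma), and it averaged 131 ± 3.31 TPM at maturity (SD, n = 3). After scaling the mature means were 32.8 for EdulChr76G00254000 and 150 for EdulChr74G00249580, against late means of 22.9 and 68.5. These 10 were drawn from 3420 eligible genes with a call in both scalings, at least 10 TPM at late swelling and no overlap between the stages (12.6% of all tested genes).

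The largest falls brought genes that were well expressed at middle swelling to near 0. EdulChr111G00333770 had 3.64, 4.43 and 3.14 TPM in the late libraries, against 488, 516 and 625 TPM in the middle libraries. EdulChr111G00333760, the preceding number, had 0.35, 0 and 0.57 TPM in late libraries and 112, 120 and 108 TPM in middle libraries. The libraries of the 2 stages were far apart for both, and the log2 changes were -6.84 ± 0.13 (SE, adjusted p = 2.28e-19 by limma) and -6.47 ± 0.14 (SE, adjusted p = 1.29e-18 by limma). EdulChr111G00333760 was under 1 TPM in every late library and entered the comparison through the middle libraries alone, so its p-value is no separate support.

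EdulChr4G00019890 had 0.05, 0.06 and 0.06 TPM in late libraries and 98.5, 99.2 and 98.2 TPM in middle libraries, a log2 change of -6.56 ± 0.03 (SE, adjusted p = 2.23e-29 by limma). EdulChr19G00079870 had 0.3, 0.18 and 0.07 TPM in late libraries and 102, 103 and 113 TPM in middle libraries, a change of -6.51 ± 0.07 (SE, adjusted p = 1.54e-23 by limma). EdulChr17G00062460 had 0.04, 0 and 0 TPM in late libraries and 72.3, 74 and 70.3 TPM in middle libraries, a change of -6.17 ± 0.06 (SE, adjusted p = 2.64e-24 by limma). All 3 were already at similar levels at the initial stage (69.9 ± 2.24, 125 ± 8.8 and 62.9 ± 2.2 TPM) and stayed under 1 TPM at maturity (0.1 ± 0.01, 0.607 ± 0.117 and 0.173 ± 0.0833 TPM, SD, n = 3). In cultivated corms their expression was thus limited to the first 2 stages. All 3 were under 1 TPM in every late library and entered the comparison through the middle libraries alone. Their p-values follow from that choice and are no separate support. In wild corms the means at late swelling were 240 TPM for EdulChr4G00019890, 25.3 TPM for EdulChr19G00079870 and 20.6 TPM for EdulChr17G00062460.

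In contrast, EdulChr12G00052480 and EdulChr75G00250470 were low at late swelling and high again at maturity. EdulChr12G00052480 had 3.56, 4.15 and 2.48 TPM in late libraries and 220, 219 and 231 TPM in middle libraries (log2 change -5.69 ± 0.12, SE, adjusted p = 9.63e-19 by limma), with 210 ± 11.6 TPM at maturity (SD, n = 3). EdulChr75G00250470 was listed at 0 in all 3 late libraries and had 55, 51.3 and 56.7 TPM in the middle libraries, with 43.2, 46.8 and 38 TPM at maturity. A smaller return was seen for novel505, which had 1.66, 0.5 and 0.93 TPM in late libraries and 87.7, 91.9 and 86.2 TPM in middle libraries (log2 change -5.50 ± 0.18, SE, adjusted p = 4.96e-16 by limma), with 21.7 ± 2.09 TPM at maturity (SD, n = 3). EdulChr102G00315940 had 3.18, 0 and 0 TPM in late libraries and 92.1, 94.2 and 116 TPM in middle libraries (log2 change -5.97 ± 0.33, SE, adjusted p = 2.77e-12 by limma), with 16.9 ± 2.62 TPM at maturity (SD, n = 3).

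The fall with the largest fitted change, EdulChr57G00201130, was also the least even. It had 0, 0 and 0.3 TPM in the late libraries, against 88.9, 129 and 470 TPM in the middle libraries. The third middle library was several times the others, and the log2 change of -7.34 had an SE of 1.35 (limma adjusted p = 7.17e-05). Its initial libraries were uneven as well, at 3206, 3107 and 7268 TPM. This gene, too, entered the comparison through the middle libraries alone. The 10 falls came from 2784 genes eligible by the same rule (10.3% of all tested genes). Rises and falls named by this rule were picked for size and for lack of overlap. Their p-values therefore describe them and are no further support.

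**Figure D2:**
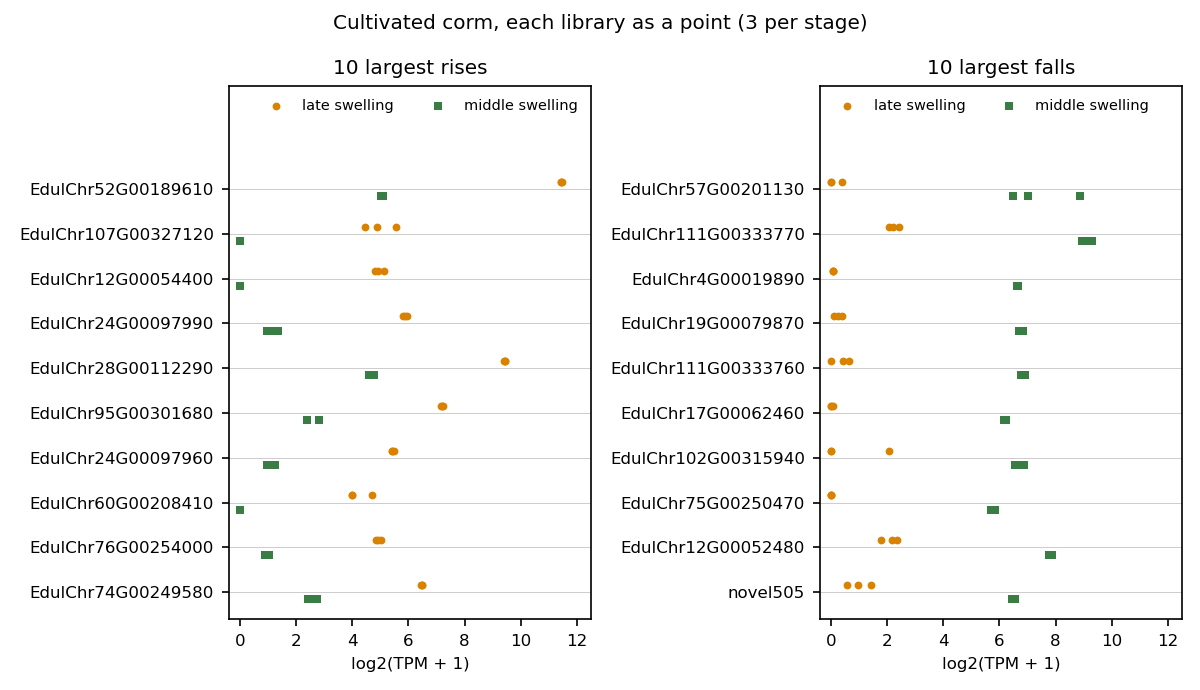
Expression as log2(TPM + 1) in each cultivated library for the 10 largest rises (left) and 10 largest falls (right), with late swelling as circles above middle swelling as squares. The 3 libraries of a stage mostly lie on top of each other, and the middle libraries of EdulChr57G00201130 spread widest.

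In TPM as deposited, losses were concentrated in fewer transcripts than gains. Over all genes of the comparison gains and losses each summed to 18.6% of total TPM, since the total is fixed, but 14242 genes gained and 6549 lost. Gains and losses were not counted after scaling, where 6741 genes were called higher and 8347 lower. The 5 largest losses among eligible genes made up 4.26% of total TPM and the 5 largest gains 1.5%. The feature novel1867 alone fell by 24962 TPM in its mean, with 12015, 11402 and 11563 TPM in late libraries and 36697, 35813 and 37356 TPM in middle libraries. Its log2 change was -1.65 ± 0.07 as deposited (SE, adjusted p = 8.17e-14 by limma) and -2.03 after scaling. At maturity novel1867 reached 136519, 125527 and 132854 TPM, so that late swelling was a low between 2 higher stages, and in wild corms it was higher at late than at middle swelling, at 115969 ± 11010 and 76352 ± 3932 TPM (SD, n = 3 each). It was the highest feature at middle swelling and the fourth highest at late swelling, where EdulChr8G00035780 took the first place.

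The other 4 large losses were of different depth. EdulChr50G00183490 had 1579, 1612 and 1616 TPM in late libraries and 6477, 6744 and 5807 TPM in middle libraries, a log2 change of -1.98 ± 0.06 (SE, adjusted p = 2.23e-16 by limma) that took it to rank 56 at late swelling, against rank 11 at middle swelling. EdulChr7G00030160 had 1747, 1774 and 1794 TPM in late libraries and 4654, 4546 and 5024 TPM in middle libraries, a change of -1.42 ± 0.07 (SE, adjusted p = 1.78e-13 by limma). Like novel1867 these genes were higher again at maturity, at 12480 TPM for EdulChr50G00183490 and 5398 TPM for EdulChr7G00030160 on average. EdulChr108G00328120 averaged 9101 ± 266 TPM at late and 12857 ± 441 TPM at middle swelling (SD, n = 3 each), a log2 change of -0.50 ± 0.07 (SE, adjusted p = 1.00e-06 by limma). For EdulChr8G00035780 the means were 23399 ± 604 TPM at late and 29552 ± 1379 TPM at middle swelling (SD, n = 3 each), a change of -0.34 ± 0.06 (SE, adjusted p = 2.06e-05 by limma). That call was lost when only the 6 cultivated middle and late libraries entered the fit (limma adjusted p = 0.423).

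The largest gain in TPM was that of EdulChr88G00285760. It had 3851, 3989 and 3903 TPM in late libraries and 296, 264 and 289 TPM in middle libraries, a log2 change of 3.79 ± 0.17 (SE, adjusted p = 7.24e-14 by limma). EdulChr41G00156970 had 8594, 9322 and 9543 TPM in late libraries and 5747, 5788 and 5529 TPM in middle libraries, a change of 0.69 ± 0.11 as deposited and 0.31 after scaling (limma adjusted p = 1.52e-05 as deposited). The feature novel1446 had 3862, 3703 and 3555 TPM in late libraries and 1125, 1046 and 1108 TPM in middle libraries, a change of 1.76 ± 0.13 (SE, adjusted p = 2.55e-10 by limma). EdulChr18G00073270 had 5183, 4973 and 4647 TPM in late libraries and 2381, 2389 and 2287 TPM in middle libraries, a change of 1.07 ± 0.06 as deposited (SE, adjusted p = 9.70e-13 by limma) and 0.69 after scaling. In each of these genes every late library was above every middle library, and late swelling had the highest mean of the 4 cultivated stages.

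Several of the most abundant genes were close to level. In 4493 genes, or 21.6%, the 95% interval of the log2 change lay within -0.5 to 0.5 under both scalings, against 32.5% of all tested genes. The tested genes outside the comparison were low in these libraries and had little room to change, so the lower share is favoured by the rule. The most abundant of them was EdulChr34G00135090, with 18771, 18686 and 18882 TPM in late libraries and 17971, 18398 and 17032 TPM in middle libraries. Its log2 change was 0.08 as deposited, with a 95% interval of -0.03 to 0.18, and -0.30 after scaling. EdulChr60G00210430 had 8166, 7956 and 8084 TPM in late libraries and 7936, 7734 and 7876 TPM in middle libraries, with an interval of -0.09 to 0.17 as deposited and a change of -0.34 after scaling. EdulChr27G00108680 had 4018, 3971 and 3901 TPM in late libraries and 3321, 3290 and 3722 TPM in middle libraries, with an interval of 0.07 to 0.34 and a change of -0.17 after scaling. The direction of these small changes depended on the scaling in all 3.

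Most of the genes that rose had their highest mean at late swelling. Late swelling had the highest mean of the 4 cultivated stages for 735 of the 1035 rises and the initial stage for 279, while maturity was highest for 21. After scaling these numbers were 728, 237 and 70. Over all 20796 genes late swelling was highest for 34.2% and maturity for 6.89% as deposited, and for 19.7% and 23.7% after scaling. A mature mean at least 2-fold below the late mean was found for 737 of the rises, and 295 stayed within 2-fold, against 367 and 659 after scaling. The median of the group means of the rises was 6.42, 2.46, 10.7 and 3.62 TPM from the initial stage to maturity. The rises were chosen as high at late and low at middle swelling, so a late maximum is favoured by that choice, and the steps before and after share libraries with it.

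The genes that fell had mostly been expressed from the initial stage. Their median group mean was 20.6, 13.4, 3.19 and 5.76 TPM from the initial stage to maturity. The initial mean was within 2-fold of the middle mean for 467 of the 992 and at least 2-fold above it for 317. It was at least 2-fold below the middle mean for 208. After scaling these 3 numbers were 448, 241 and 303, so that the order of the last 2 turned. At maturity 658 stayed within 2-fold of their late mean and 304 stood at least 2-fold above it. After scaling the last 2 numbers were 526 and 452. Late swelling had the lowest of the 4 means for 646 of the falls as deposited and for 734 after scaling. Over all 20796 genes it was lowest for 8.78% as deposited and 18.8% after scaling. The falls were chosen as low at late and high at middle swelling, so a late minimum is favoured by that choice.

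**Figure D3:**
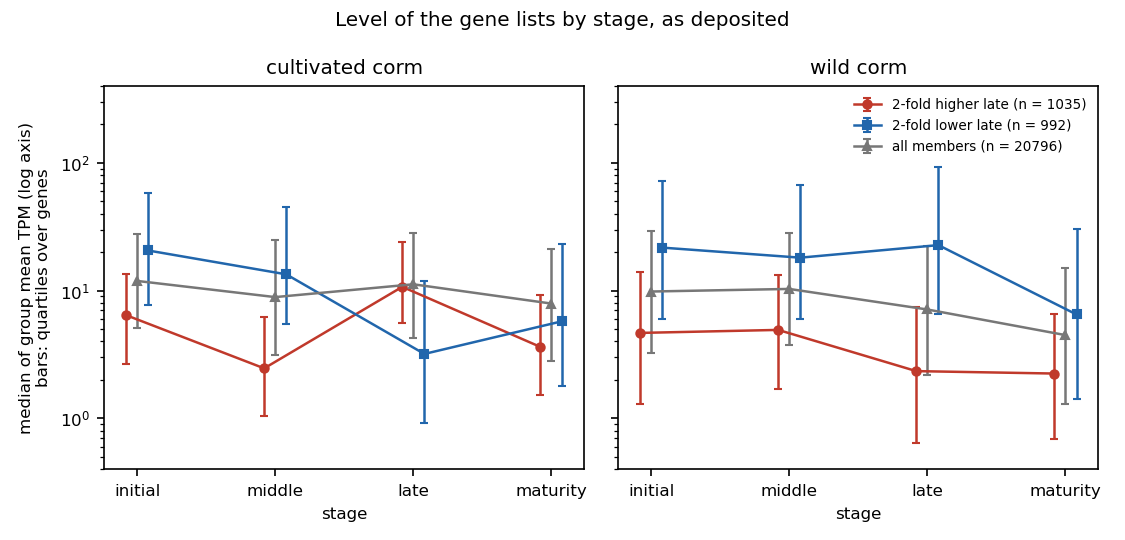
Median of the group mean TPM (log axis, bars are quartiles over genes) by stage in cultivated (left) and wild (right) corms for the 1035 genes 2-fold higher at late swelling, the 992 genes 2-fold lower, and all 20796 genes. In cultivated corms the red and blue lines cross between middle and late swelling, by the choice of the lists. In wild corms the red line is lower at late than at middle swelling and the blue line is slightly higher.

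Transient highs and lows were counted at late and middle swelling, and not at the initial stage or at maturity. Counted after the values were seen, 25 genes stood at late swelling at 10 TPM or more and at least 4-fold above each of the other 3 cultivated stages under both scalings, with no overlap of libraries. At middle swelling 5 genes met the same rule. The reverse was a low at least 4-fold below each other stage with all others at 10 TPM or more. It was met by 30 genes at late swelling and by 0 at middle swelling under both scalings (2 genes as deposited). The late counts moved with the scaling, with 61 highs and 36 lows as deposited and 25 highs and 49 lows after scaling. The transient highs included EdulChr52G00189610, EdulChr24G00097960, EdulChr24G00097990, EdulChr28G00112290 and EdulChr60G00208410 described above. EdulChr3G00015010 was another, with 93.4, 102 and 107 TPM in late libraries and 5.35, 6.27 and 6.16 TPM in middle libraries, 2.79 ± 0.427 TPM at the initial stage and 3.81 ± 0.723 TPM at maturity (SD, n = 3 each). A further one, novel1763, had 63.2, 69.6 and 64.6 TPM in late libraries and 5.4, 5.15 and 4.42 TPM in middle libraries, and it was under 1 TPM in every mature library. Among the transient lows, EdulChr18G00073200 had 8.83, 7.36 and 9.68 TPM in late libraries and 348, 341 and 303 TPM in middle libraries, with 189 ± 11.4 TPM at the initial stage and 113 ± 6 TPM at maturity (SD, n = 3 each). The low of novel2324 was uneven, with 6.5, 12.7 and 14.7 TPM in late libraries against 927, 256 and 182 TPM in middle libraries. These genes were picked for their pattern, so their values carry no test. No share over all tested genes was worked out for these counts, so they only describe the 2 stages.

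Complete switches were few, with 22 of 20796 genes each way. Every gene with this pattern meets the rule of the comparison, so the counts are the same over all 35975 genes. A set of 22 genes was under 0.1 TPM in all middle libraries and at 1 TPM or more in all late libraries, and 22 genes showed the reverse. Among the first set 3 reached a mean of 10 TPM at late swelling, and among the second 4 had reached it at middle swelling under the same rule. Of the 22 that were switched off, 18 were at 1 TPM or more in all initial libraries and 5 in all mature libraries. Of the 22 that were switched on, 4 were at 1 TPM or more in all initial and 2 in all mature libraries. The feature novel676, listed at 0 in all late libraries, had 9.19, 9.26 and 11.2 TPM at middle swelling, while its initial libraries had 92.8, 88.4 and 80 TPM. These genes differ by the way they were chosen. More widely, 805 genes entered the comparison through the late libraries alone and 373 through the middle libraries alone, and 18330 reached 1 TPM in all 6. At the edge of the rule, 106 genes had a third-highest value from 1 to under 1.05 TPM and were included, and 141 had one from 0.95 to under 1 TPM and were not.

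The same labelled step in wild corms shares no library with the cultivated one. The difference in log2 change, cultivated minus wild, passed limma's test for 18161 of the 20796 genes, against 85.5% of all tested genes. It was positive in 14156 (background 66.7%) and negative in 4005 (background 18.8%). After scaling 16567 passed (background 78.3%), 7561 positive (background 38.7%) and 9006 negative (background 39.5%). The difference was called with the same sign in both scalings for 11566, or 55.6%, against 57.5% of all tested genes. These shares are near those of all tested genes. The wild step itself was called in 17857 genes, against 85.3% of all tested genes. Among the 1035 cultivated rises the median log2 change in wild corms was -0.70 as deposited and -0.25 after scaling. Over all 20796 genes it was -0.50 and 0.02. Among the 992 cultivated falls the wild median was 0.08 as deposited and 0.70 after scaling. In both scalings the wild medians thus lay below that of all genes for the rises and above it for the falls. How far a stage label marks the same point of development in both origins was not tested.

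Opposite changes were more numerous than shared ones. Under both scalings 72 genes were at least 2-fold higher at late swelling in both origins. That is 6.96% of the cultivated rises and 4.53% of the wild ones. A total of 168 cultivated rises were 2-fold lower in wild corms, or 16.2% of the cultivated rises and 10.2% of the wild falls. Of the cultivated falls, 101 were 2-fold lower in wild corms too, or 10.2% of the cultivated and 6.14% of the wild falls. The remaining and largest class were 268 cultivated falls that were 2-fold higher in wild corms, or 27% of the cultivated falls and 16.8% of the wild rises. Across the 20796 genes, 7.65% (1591) were 2-fold higher and 7.91% (1645) 2-fold lower in wild corms under both scalings. These are the shares to set beside the percentages of the cultivated lists. The percentages of the wild lists stand beside 1035 cultivated rises and 992 cultivated falls among the same 20796 genes. Over all 27050 tested genes 7.85% were 2-fold higher and 11.1% 2-fold lower in wild corms. These overlaps are descriptions and were not tested.

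**Figure D4:**
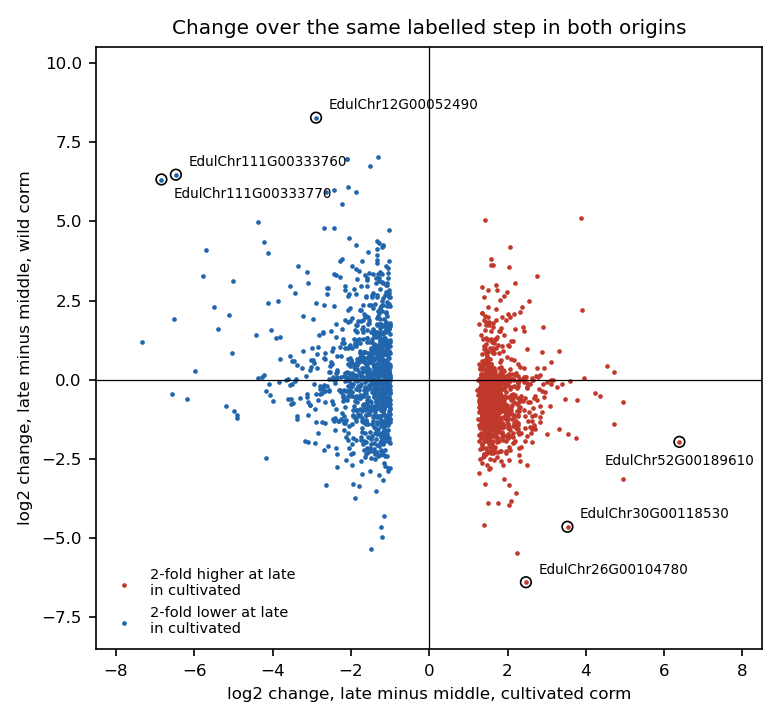
Log2 change from middle to late swelling in wild corms (vertical axis) against that in cultivated corms (horizontal axis) for the 1035 genes 2-fold higher (red) and the 992 genes 2-fold lower (blue) at late swelling in cultivated corms, as deposited. The empty band around 0 on the horizontal axis comes from the choice of genes, and the 6 circled genes are those with the largest opposite changes by the naming rule.

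The strongest opposite changes joined neighbouring IDs. EdulChr111G00333770, which fell in cultivated corms, had 2945, 3833 and 4005 TPM in wild late libraries, against 38.5, 40.4 and 53.5 TPM in wild middle libraries. EdulChr111G00333760 had 1284, 1179 and 1276 TPM in wild late libraries, against 11, 14.4 and 13.9 TPM in wild middle libraries. The differences in log2 change, cultivated minus wild, were -13.16 ± 0.19 (SE, adjusted p = 1.60e-21 by limma) and -12.95 ± 0.20 (SE, adjusted p = 3.83e-21 by limma). Both genes were thus high in the middle and low in the late cultivated corms, and the other way round in wild corms.

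EdulChr12G00052490, the number after EdulChr12G00052480, had 5.14, 4.78 and 6.14 TPM in cultivated late libraries and 48.2, 41.3 and 48.7 TPM in cultivated middle libraries. In wild corms it had 1220, 1295 and 1431 TPM in late libraries and 1.54, 2.46 and 7.8 TPM in middle libraries. The difference in change was -11.16 ± 0.37 (SE, adjusted p = 3.09e-16 by limma). Its neighbour EdulChr12G00052480 moved the same way, with 3612 ± 439 TPM in wild late and 208 ± 14.2 TPM in wild middle corms (SD, n = 3 each).

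On the side of cultivated rises, EdulChr26G00104780 had 13.6, 15 and 13.2 TPM in cultivated late libraries and 1.93, 2.05 and 1.16 TPM in cultivated middle libraries. In wild corms it had 0.51, 0.37 and 0.25 TPM in late libraries and 117, 112 and 114 TPM in middle libraries, which gave a difference in change of 8.87 ± 0.15 (SE, adjusted p = 6.70e-21 by limma). EdulChr52G00189610, the largest cultivated rise, had 323, 354 and 350 TPM in wild late and 1337, 1380 and 1296 TPM in wild middle libraries, a difference of 8.35 ± 0.07 (SE, adjusted p = 2.00e-25 by limma). EdulChr30G00118530 had 28.6, 32.9 and 37.1 TPM in cultivated late and 1.59, 2.45 and 1.76 TPM in cultivated middle libraries. In wild corms EdulChr30G00118530 stood at 0.1, 0.31 and 0.42 TPM in late and 29.4, 29.3 and 33.7 TPM in middle libraries, a difference of 8.18 ± 0.20 (SE, adjusted p = 3.12e-18 by limma). The sign of all 6 differences was the same after scaling. These genes were picked for opposite calls, so their p-values describe them and are no further support.

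**Figure D5:**
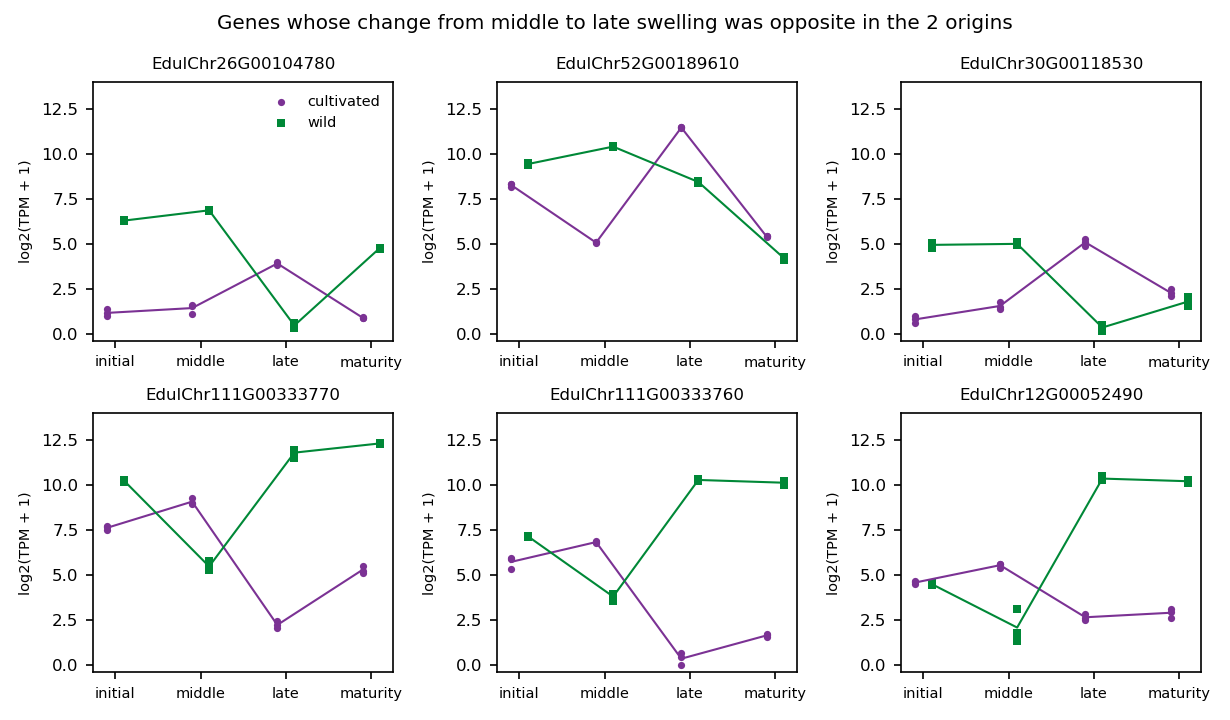
Expression as log2(TPM + 1) by stage in cultivated (circles) and wild (squares) corms for the 6 genes with the largest opposite changes, each library as a point and lines through the group means. Between middle and late swelling the cultivated and wild lines cross in every panel.

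Some large gains had far lower levels in wild corms. EdulChr88G00285760 averaged 3914 ± 69.6 TPM in cultivated late corms, while wild libraries had 4.41, 2.61 and 3.99 TPM at late and 6.54, 5.97 and 6.17 TPM at middle swelling. For novel1446 the cultivated late mean was 3707 ± 154 TPM (SD, n = 3), and wild libraries had 13.1, 11.2 and 14.6 TPM at late and 11.4, 12.7 and 12.9 TPM at middle swelling. EdulChr28G00112290 was under 1 TPM on average in wild late and middle corms and reached 21.6 TPM in wild mature corms. The steady gene EdulChr60G00210430 was not steady in wild corms, with a log2 change of 2.49 from a mean of 2521 TPM at late and 449 TPM at middle swelling.

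Features whose ID lacks the EdulChr prefix, all of the form novel505, rose more often than the others. Of 1515 such features, 191 (12.6%) were 2-fold higher and 65 (4.29%) 2-fold lower at late swelling under both scalings. Of 19281 genes with the prefix, 844 (4.38%) were higher and 927 (4.81%) lower. The features without the prefix were mostly weakly expressed, but the shares differed within levels too. Under 10 TPM, 11.9% of the features without the prefix and 5.83% of the genes with it were higher, and at 10 TPM or more 15.2% and 3.1%. Under 10 TPM, 3.22% of the features without the prefix and 5.51% of the genes with it were lower. At 10 TPM or more these were 8.04% and 4.19%, so there the features without the prefix also fell more often. Despite the more frequent rises, features without the prefix held a smaller share of TPM at late swelling, 5.25 ± 0.196% against 8.45 ± 0.247% at middle swelling (SD, n = 3 each). Without novel1867 the share was 4.08 ± 0.167% at late and 4.79 ± 0.211% at middle swelling (SD, n = 3 each). No test was made of these shares.

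Rises and falls were spread over the number after EdulChr in the ID. Of 111 such numbers, 107 held at least 100 genes of the comparison. Over these the share of rises ranged from 0 to 9.92% with a median of 4.27%, and that of falls from 1.2 to 9.93% with a median of 4.73%. Some consecutively numbered genes changed in the same direction. The sources used here do not state that the numbers follow the order on the chromosome, and no test was made of how many such runs there were. As deposited, 324 of the 2-fold rises lay in 153 runs of 2 or more consecutive IDs, and 119 of the 2-fold falls in 50 runs. Among genes 2-fold changed in both scalings it was 81 rises in 39 runs and 119 falls in 50 runs. As deposited the longest run held 4 genes for rises, reached by 3 runs, and 6 for falls. The runs named here were picked as deposited by length and then by the size of their median change. The p-values of their genes therefore describe them and are no further support.

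The first named rising run, EdulChr26G00104770 to EdulChr26G00104800, included EdulChr26G00104780. EdulChr26G00104770 had 14, 13.6 and 14.4 TPM in late libraries and 0.56, 0.99 and 0.69 TPM in middle libraries, a log2 change of 3.11 ± 0.12 (SE, adjusted p = 9.16e-15 by limma). It entered the comparison through the late libraries alone. The other 2 genes, EdulChr26G00104790 and EdulChr26G00104800, changed by 1.15 and 1.49 as deposited and by 0.81 and 1.17 after scaling, so that EdulChr26G00104790 was not 2-fold higher in both. In wild corms EdulChr26G00104780, EdulChr26G00104790 and EdulChr26G00104800 changed by -6.39, -1.05 and -1.59, and EdulChr26G00104770 by 0.56. The second run, EdulChr8G00033710 to EdulChr8G00033740, was led by EdulChr8G00033710 with 68.2, 66.5 and 67.6 TPM in late libraries and 12.8, 13.6 and 13.9 TPM in middle libraries (log2 change 2.25 ± 0.06, SE, adjusted p = 4.58e-17 by limma).

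Among the falling runs, EdulChr41G00155650 to EdulChr41G00155700 contained features with identical values. EdulChr41G00155650 and EdulChr41G00155680 both had 25.4, 33.3 and 34.6 TPM in late libraries and 335, 279 and 194 TPM in middle libraries, and they shared the value of every one of the 24 libraries. The same held for EdulChr41G00155670 and EdulChr41G00155700, which had 0.7, 0 and 0 TPM in late and 4.48, 2.92 and 5.34 TPM in middle libraries. Such pairs cannot be counted as separate measurements, and how reads were divided between copies is not given in the sources used here. The fall of EdulChr41G00155660 in this run overlapped between stages, with 20.4, 3.25 and 13 TPM in late and 33.3, 20 and 17.8 TPM in middle libraries. Its log2 change of -1.14 ± 0.45 (SE, adjusted p = 0.0313 by limma) became -0.47 without the second late library (limma adjusted p = 0.310) and -0.88 without the first middle library (limma adjusted p = 0.136). Over the whole comparison 24 genes in 11 sets shared all 24 values with another, 4 of them among the falls. In the other long falling run, EdulChr33G00128860 to EdulChr33G00128910, the values differed between genes. Its largest change was that of EdulChr33G00128900, with 1.34, 1.5 and 1.65 TPM in late libraries and 14.8, 20.6 and 20.6 TPM in middle libraries (log2 change -2.97 ± 0.18, SE, adjusted p = 8.95e-12 by limma).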

How the data were processed

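The authors deposited TPM values, rounded to 2 decimals, in 1 table with a row per gene and a column per library. Per the submitters' processing notes, StringTie 2.1.6, HISAT2 2.0.4 and DESeq2 were used; their roles are not stated. Genome build, annotation and any filter were not given in the sources used here. Columns were matched to samples by origin, stage and sample number, and none was left over. Depth is unknown. Values as log2(TPM + 1) of 27050 genes (TPM of at least 1 in at least 3 of 24 libraries) were fitted with limma 3.58.1 in R 4.3.3 (8 group means, eBayes with trend) and p-values adjusted by Benjamini-Hochberg over all of them. This scale understates changes of low genes. Genes were called at an adjusted p under 0.05. Differences between late and middle swelling were tested in each origin and as an interaction. Named genes were the 10 largest rises and falls, called in both scalings, with 10 TPM on the higher side and no overlap of libraries; the 5 largest gains and losses in TPM; the 3 most abundant with an interval within -0.5 to 0.5; the 3 largest opposite changes each way; and the 2 longest runs each way (ties by the larger median change). Alternatives were a pseudocount of 0.1, other filters, scaling, removal of the 10 highest genes, fewer groups, a replicate block and each library left out. The comparison, lists and tests were chosen with earlier results of these data known.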

Additional observations from a re-analysis of the deposited data

Results flagged for a closer look

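The change from middle to late swelling differed between cultivated and wild corms, by limma's test of the difference itself, for 18161 of 20796 genes, or 87.3%, against 85.5% of all tested genes. With 1 sign in both scalings it was 11566, or 55.6%, against 57.5% of all tested genes. The prevailing sign of this difference turned with the scaling: 14156 were positive and 4005 negative as deposited, and 7561 and 9006 after scaling. Single genes with calls in opposite directions were EdulChr26G00104780 (difference in log2 change, cultivated minus wild, 8.87), EdulChr52G00189610 (8.35) and EdulChr30G00118530 (8.18) on one side, and EdulChr111G00333770 (-13.16), EdulChr111G00333760 (-12.95) and EdulChr12G00052490 (-11.16) on the other. After scaling these were 8.09, 7.29, 7.42, -14.13, -13.69 and -12.06. Growing site, plant line and mapping to a reference of unstated origin cannot be told apart from origin.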

How the results depend on the processing

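The number of genes called between late and middle swelling in cultivated corms lay between 11829 (mean TPM of at least 5) and 16219 (only the 20796 genes in the fit), against 16011. Of the 3376 genes with a 2-fold change, 2231 were left with a mean TPM of at least 5, where fewer genes were tested. The 2383 rises became 3608 with a pseudocount of 0.1, 1390 with a mean TPM of at least 5 and 1035 after scaling. The 993 falls became 1665 after scaling. Without the 10 highest genes there were 2205 rises and 1129 falls. With 1 library left out, calls ranged from 15378 to 16067, 2-fold changes from 3365 to 3404, rises from 2372 to 2413, falls from 986 to 1006, differences between origins from 17951 to 18048, and calls in wild corms from 17453 to 17871. After scaling the log2 changes of EdulChr34G00135090, EdulChr60G00210430 and EdulChr27G00108680 reversed to -0.30, -0.34 and -0.17. Of 866 values of named genes under alternatives, 857 stayed on their side of the threshold without a reversal, 6 were weaker and 3 reversed. A change of sign counted as a reversal only where the main or the alternative value was called. Without the 10 highest genes no value was had for those removed, nor with a mean TPM of at least 5 for genes under it. Same-numbered late and middle libraries did not deviate together. The correlation of their deviations across genes was 0.0241, 0.00684 and -0.0275 in cultivated corms. There, each late library correlated best with a middle library of another number (0.0637, 0.0335 and 0.0885). With a replicate block 15967 genes were called and 3377 changed 2-fold. TPM holds no depth, so the error of low values is known only from 3 replicates. The cause of each shift other than fewer genes tested was not tested.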
